A study of Mus musculus with 4 samples.

Results

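Loss of Tlr3 without treatment was examined by setting the microRNA (miRNA) array of non-treated Tlr3-/- small intestine at 0 hr against the array of non-treated Tlr3+/+ small intestine at 0 hr. The members were all mouse miRNA probes whose raw intensity passed 3 times the detection threshold on at least 1 of these 2 arrays, and 113 of 1096 mouse probes did so. The threshold of an array is the mean of its blank spots plus 2 SD, and 3 times the threshold came to 77.2 on the Tlr3+/+ array and 79.4 on the Tlr3-/- array. Of the 113 members, 107 passed on both arrays, 2 only on the Tlr3+/+ array (miR-5115 and miR-375) and 4 only on the Tlr3-/- array (miR-451, miR-195, miR-135a-2* and miR-680). A member that passed on 1 array only had to differ between the arrays to be included, so its presence on the list says nothing of genotype.

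The series holds 4 arrays of small intestine, 1 for each genotype at 0 hr without treatment and 1 for each genotype at 6 hr after 10 Gy of total body gamma-irradiation. Every array carried the RNA of 1 pool of 3 mice. With a single array per group no test was possible. The precision of all values is limited by this number of arrays. The labels used here give neither the strain nor the age of the mice, nor how the Tlr3 allele was made. By their deposited names the arrays at 0 hr share 1 slide, on which genotype and position cannot be told apart, and the arrays at 6 hr lie on 2 other slides, so genotype and slide cannot be told apart there. The array does not measure Tlr3 mRNA, and the genotype labels could not be checked.

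TLR3 is an endosomal Toll-like receptor that binds double-stranded RNA and signals through the adaptor TRIF to NF-kB and interferon regulatory factors. It is made by intestinal epithelial cells among others, and the study's labels pair its loss with irradiation, which kills cells of the intestinal crypts. miRNAs are short RNAs that pair through their seed, bases 2 to 8 from the 5′ end, with sites in messenger RNAs and lower their translation or stability. Many are made from shared primary transcripts, and many are typical of 1 cell type, so in whole tissue a level follows both the cells present and the RNA per cell, and fewer cells of a type and less RNA per cell cannot be told apart.

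The sequences below carry the main results. They are mature mouse miRNAs from RefSeq (GRCm38.p6), written 5′ to 3′ with the seed in capitals. Of the 113 members, 89 were matched by name to this table. The first set holds the seed group of miR-195, shown because miR-195 and its nearest relatives gave different ratios.
miR-195: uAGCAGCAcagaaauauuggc
miR-16: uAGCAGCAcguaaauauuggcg
miR-15a: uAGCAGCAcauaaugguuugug
miR-15b: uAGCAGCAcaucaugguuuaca
miR-497: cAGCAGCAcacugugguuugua
The next 2 miRNAs come from neighbouring genes and share no seed. They are shown because miR-451 had the highest ratio while its neighbour stayed near the detection threshold.
miR-451: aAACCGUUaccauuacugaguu
miR-144: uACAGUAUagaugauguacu
The miR-200 family has 2 seeds and is shown because miR-141 was among the lowest ratios.
miR-141: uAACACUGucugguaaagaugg
miR-200a: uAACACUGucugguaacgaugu
miR-200b: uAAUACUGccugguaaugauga
miR-200c: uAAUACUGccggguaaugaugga
miR-429: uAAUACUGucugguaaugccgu
The seed group of miR-17 is shown because its 6 members all had ratios below 0.
miR-17: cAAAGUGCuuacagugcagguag
miR-20a: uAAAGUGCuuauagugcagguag
miR-20b: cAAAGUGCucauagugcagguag
miR-93: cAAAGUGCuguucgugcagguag
miR-106a: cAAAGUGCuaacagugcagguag
miR-106b: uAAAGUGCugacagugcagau
The remaining sequences belong to single miRNAs described below: the let-7 members with the lowest and the highest ratio, and miR-24, miR-10a and miR-326*.
let-7c: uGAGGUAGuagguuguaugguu
let-7g: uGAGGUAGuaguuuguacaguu
miR-24: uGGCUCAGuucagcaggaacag
miR-10a: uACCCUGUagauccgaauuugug
miR-326*: gGGGGCAGggccuuugugaaggcg

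The Tlr3+/+ array had 779 mouse probes above its threshold and the Tlr3-/- array 721, with 656 above it on both. The 2 spike controls, each on 8 spots, were brighter on the Tlr3-/- array by 0.29 and 0.23 on the log2 scale. Repeated spots of a spike control varied within an array with an SD of 0.07 (log2), which holds no difference between mice, pools or arrays. The tissue label was checked against cell type markers. All 12 markers of intestinal epithelium were members, among them miR-194, whose raw intensity was 5941 on the Tlr3+/+ array and 6969 on the Tlr3-/- array, and miR-215 at 5461 and 5443. All 4 markers of pancreas and liver were at or below the threshold on at least 1 array, and 3 of 7 markers of striated muscle and 5 of 5 of neurons were detected on both arrays, none of them bright enough to be a member.

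Ratios are given as log2 of Tlr3-/- over Tlr3+/+ after background correction with an offset of 50 and quantile normalization, so a positive value means a higher level in Tlr3-/-. The offset understates the ratios of dim probes, and quantile normalization gives probes of equal rank a ratio of exactly 0.

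Most bright miRNAs had nearly the same value on the 2 arrays after quantile normalization, which itself gives all arrays the same distribution of values. Before normalization 82 of the 113 raw log2 ratios (72.6%) lay within 0.25 of 0, with a median of 0.05. After normalization the 113 log2 ratios ran from -0.63 to 1.56 with a median of 0, quartiles of -0.13 and 0.10 and an SD of 0.28, and 87 of them (77.0%) lay within 0.25 of 0. Over all 656 mouse probes detected on both arrays, most of them dimmer, 628 (95.7%) lay within 0.25 and the SD was 0.13. The offset pulls the ratios of dim probes towards 0. The wider spread of the members and the low shares over all detected probes below are therefore not compared on equal terms. Only miR-451 and miR-195 were 2-fold or more higher in Tlr3-/-, which is 2 of 113, against 0.305% of all 656 detected probes. At 1.5-fold, 3 members were higher (miR-451, miR-195 and miR-326*), with 0.457% over all detected probes, and 2 were lower (miR-5112 and miR-141), also with 0.457% over all detected probes. In either direction this makes 5 members, against 0.915% of all detected probes. No member was 2-fold lower. All 3 detected probes past 1.5-fold upward were members, and 1 of the 3 past it downward was not, miR-1927, with a raw intensity of 72.1 in Tlr3+/+ and 40.6 in Tlr3-/- and a log2 ratio of -0.62. Among the 107 members that passed the intensity limit on both arrays, 1 was 1.5-fold higher, 2 were 1.5-fold lower and none was 2-fold different in either direction.

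**Figure D1:**
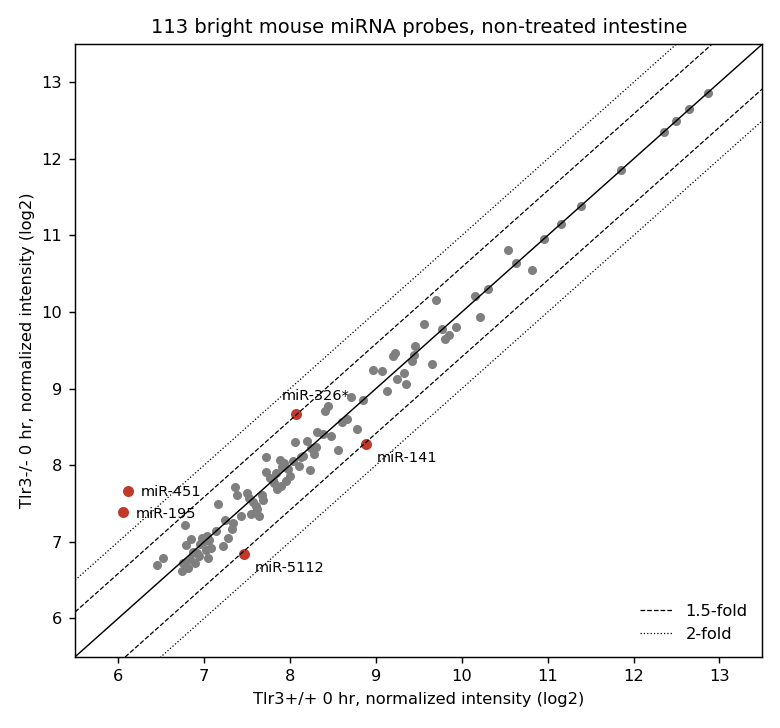
Each point is 1 of 113 bright mouse miRNA probes, with its normalized intensity (log2) in non-treated Tlr3+/+ intestine on the x axis and in non-treated Tlr3-/- intestine on the y axis, 1 array each. The solid line marks equal levels, dashed and dotted lines mark 1.5-fold and 2-fold, and red points are the 5 members past 1.5-fold. Only miR-451 and miR-195 lie beyond the 2-fold line, both at the dim end of the Tlr3+/+ axis.

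The share of members on each side of 0 depended on how the arrays were scaled. In the main setting 42 members were above 0, 55 below and 16 at exactly 0, while 48% of all detected probes were above 0 and 48.6% below. Before normalization, 68 of the 113 raw ratios were above 0 and 45 below, on arrays whose spike controls also differed. Scaling to the median gave 83 above and 30 below, the 75th percentile 55 and 58, cyclic loess 39 and 74, the authors' normalized values 36 and 77, and the spike controls 29 and 84. Across the main setting and these alternatives together with quantile normalization of each pair of arrays, 28 members were above 0 every time and 28 below 0 every time. Only miR-451 and miR-195 were 1.5-fold higher under every scaling, and no member was 1.5-fold lower under every scaling. Both entered as members only through the Tlr3-/- array, where they were higher, and every scaling starts from the same spots. Their agreement across scalings is therefore no independent support.

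miR-451 is a miRNA of red blood cells and their precursors that is cut from its hairpin by Argonaute 2 rather than Dicer. Its raw intensity was 42.3 in Tlr3+/+ and 171 in Tlr3-/- at 0 hr, and 129 in Tlr3+/+ and 82.7 in Tlr3-/- at 6 hr. It was therefore lowest on the non-treated Tlr3+/+ array and highest on the non-treated Tlr3-/- array, and the order of the genotypes at 6 hr was the opposite. The ratio at 0 hr was 2.94-fold (log2 1.56), with 1.39 to 2.83 on the log2 scale under the other 6 scalings. The authors' normalized values, which carry no offset, gave 7.11-fold, and subtraction of the blank mean before quantile normalization gave 7.95-fold.

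The mature miR-451 lies at chr11:78073186-78073207 on the plus strand (GRCm38.p6), within the miRNA gene Mir451a, which is 99 bp from the gene of miR-144. miR-144, transcribed with miR-451 in red cell precursors, had a raw intensity of 26.6 in Tlr3+/+ and 26.7 in Tlr3-/- at 0 hr. The thresholds of these arrays were 25.7 and 26.5, so miR-144 was barely above background on both, and its log2 ratio was -0.01. The third red cell marker, a probe shared by miR-486 and miR-3107, read 30.7 and 33.4, with a log2 ratio of 0.07. The summed raw intensity of the 3 red cell markers was 99.6 in Tlr3+/+ and 231 in Tlr3-/-, and 1 of the 3, miR-451 itself, was past 1.5-fold. None of the 3 was below the threshold at 0 hr. Whether the amount of blood in the tissue had a part in the miR-451 result was not tested.

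miR-195 belongs to the miR-15/16 seed group, whose members are known to repress cyclins and BCL2. Its raw intensity was 39.6 in Tlr3+/+ and 143 in Tlr3-/- at 0 hr, and 111 in Tlr3+/+ and 146 in Tlr3-/- at 6 hr. The value that stood apart was that of the non-treated Tlr3+/+ array, since the other 3 arrays lay between 111 and 146. The ratio at 0 hr was 2.50-fold (log2 1.32), with 1.24 to 2.76 on the log2 scale under the other scalings, and the log2 ratio at 6 hr was 0.20. The authors' normalized values gave 6.78-fold at 0 hr.

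The relatives of miR-195 in the sequences above did not share its ratio. miR-16, which has the same base at 19 of 21 positions, read 460 in Tlr3+/+ and 448 in Tlr3-/-, with a log2 ratio of -0.16. miR-497, from a gene 241 bp away on the same strand, read 91.1 and 88.7, with a log2 ratio of -0.13. miR-15a and miR-15b had log2 ratios of -0.04 and -0.15. Over the 5 members of the list the median log2 ratio was -0.13 (from -0.25 to 0.01 under the other scalings), with 1 above 0 and 4 below. At 6 hr all 5 were above 0 with a median of 0.22. At that time 57 of the 73 members numbered below 600 without a star were above 0, with a median of 0.12. The mature miR-195 lies at chr11:70235062-70235082 on the plus strand (GRCm38.p6), in the miRNA gene Mir195a. With 2 bases between them, some of the signal of the miR-195 and miR-16 probes may be shared.

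**Figure D2:**
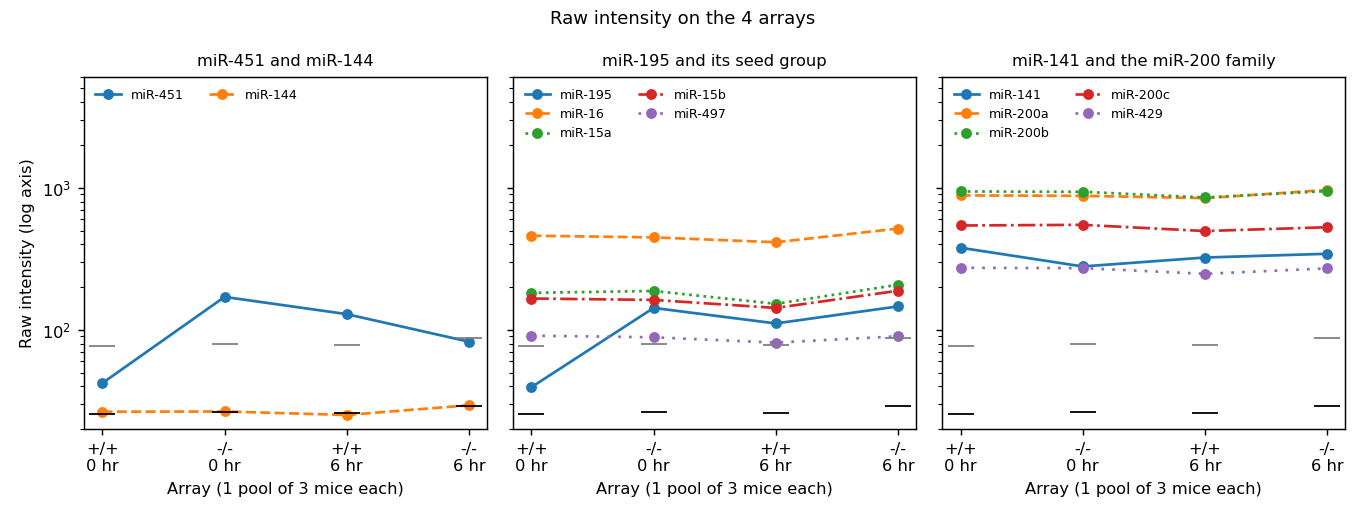
Raw intensity (log axis) of 12 miRNA probes on the 4 arrays, 1 pool of 3 mice each. Lines only join the values of a probe, black ticks mark the detection threshold of an array and grey ticks 3 times that threshold. miR-451 and miR-195 fall below the grey tick on the non-treated Tlr3+/+ array (42.3 and 39.6), while miR-144 stays near the black ticks and miR-16 reads 460 and 448 at 0 hr, and miR-141 reads 379 in Tlr3+/+ and 279.5 in Tlr3-/- at 0 hr, where its 4 relatives read nearly the same in both.

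The other 13 of the 15 highest ratios lay between 0.25 and 0.60, and all 15 were above 0 under every scaling. miR-326*, the passenger strand of the miR-326 hairpin, read 233 in Tlr3+/+ and 347 in Tlr3-/- at 0 hr. The same probe read 879 in Tlr3+/+ and 622 in Tlr3-/- at 6 hr, the opposite order at a higher intensity. Its log2 ratio at 0 hr was 0.60, and it passed 1.5-fold under none of the 6 other scalings, which gave 0.31 to 0.57.

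Several of the following ranks were probes with the same course over the 4 arrays. miR-2137 read 727 and 940 at 0 hr and 2630 and 1972 at 6 hr, with a log2 ratio of 0.46 at 0 hr and -0.34 at 6 hr. miR-3077* read 81.5 and 116 at 0 hr (log2 0.45), and miR-211* read 126 and 175 (log2 0.36), with -0.38 and -0.46 at 6 hr. miR-3960 had 0.29 at 0 hr and -0.33 at 6 hr. These 4 probes, like miR-326*, were higher in Tlr3-/- at 0 hr and lower in Tlr3-/- at 6 hr. miR-135a-2* also changed sign, from 0.27 to -0.37, but read only 62.8 and 86.6 at 0 hr and 44.5 and 30.4 at 6 hr.

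miR-10a, which is encoded within a Hox gene cluster, read 171 in Tlr3+/+ and 251 in Tlr3-/- at 0 hr. It read 170 and 191 at 6 hr, so the non-treated Tlr3-/- array held its highest value. The log2 ratio at 0 hr was 0.39, with 0.29 to 0.54 under the other scalings. miR-10b, with the same seed, had 0.07.

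Of miRNAs typical of particular cells, miR-142-5p, which is restricted to blood cells, read 112 in Tlr3+/+ and 151 in Tlr3-/- at 0 hr, and 89.1 and 82.6 at 6 hr. Its log2 ratio was 0.34 at 0 hr and -0.07 at 6 hr. The dimmer miR-142-3p, from the other arm of the hairpin, had 0.19 and 0.20. miR-145, a miRNA of smooth muscle, read 1234 and 1542 at 0 hr, with a log2 ratio of 0.27 (from 0.07 to 0.37 under the other scalings). miR-143 of the same primary transcript read 1389 and 1652 and had a ratio of exactly 0 (from -0.005 to 0.29). Quantile normalization sets such ratios by rank, so the gap between 0.27 and 0 need not be a difference in level. let-7g had 0.34, miR-30c 0.31, miR-1195 0.27 and miR-26b 0.25 at 0 hr, and these 4 were also above 0 at 6 hr, with 0.33, 0.29, 0.19 and 0.22.

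The lowest ratios were those of miR-5112 and miR-141. miR-5112 read 136 in Tlr3+/+ and 91.4 in Tlr3-/- at 0 hr, and 101 and 112 at 6 hr. The non-treated Tlr3+/+ array held its highest value and the non-treated Tlr3-/- array its lowest. The log2 ratio at 0 hr was -0.63 (from -0.96 to -0.45 under the other scalings) and passed 1.5-fold in 2 of the 6 other scalings, and the ratio at 6 hr was 0.13.

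miR-141, which with the rest of the miR-200 family keeps epithelial cells epithelial by repressing Zeb1 and Zeb2, read 379 in Tlr3+/+ and 279.5 in Tlr3-/- at 0 hr. It read 323 and 343 at 6 hr, so the non-treated Tlr3-/- array held the lowest of the 4 values. The log2 ratio at 0 hr was -0.61, or 1.53-fold higher in Tlr3+/+, with -0.68 to -0.37 under the other scalings, and it passed 1.5-fold in 2 of these 6. The mature miR-141 lies at chr6:124717917-124717938 on the minus strand (GRCm38.p6), in a gene 336 bp from that of miR-200c.

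The rest of the family differed less. miR-200c read 543 in Tlr3+/+ and 549 in Tlr3-/-, miR-200b 941 and 937, miR-200a 884 and 878 and miR-429 274 and 272, nearly the same on both arrays. After quantile normalization their log2 ratios were -0.29, -0.28, -0.12 and -0.06. All 5 members of the family were thus below 0 in the main setting, with a median of -0.28, but the median ran from -0.25 to 0.04 under the other scalings and only miR-141 stayed below 0 in all of them. miR-200a, which shares its seed and 20 of 22 bases with miR-141, is the closest comparison, and its raw values were 884 and 878. At 6 hr all 5 were above 0, with a median of 0.08. The 73 members numbered below 600 without a star had 57 above 0 at 6 hr, with a median of 0.12.

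Below these, the 15 lowest ratios went up to -0.18, and 13 of the 15 were below 0 under every scaling, miR-200b and miR-200c being the exceptions. miR-24, made from 2 clusters together with miR-23 and miR-27, read 322 in Tlr3+/+ and 266 in Tlr3-/- at 0 hr, and 341 and 350 at 6 hr. Its log2 ratio was -0.37 at 0 hr (from -0.51 to -0.21 under the other scalings) and 0.00 at 6 hr. let-7c read 697 and 612 at 0 hr and 687 and 860 at 6 hr, with log2 ratios of -0.32 and 0.30. In both miRNAs the non-treated Tlr3-/- array held the lowest value.

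miR-21, a widely expressed miRNA that rises in inflammation and injury, read 1365 in Tlr3+/+ and 1183 in Tlr3-/- at 0 hr, and 930 and 1371 at 6 hr. Its log2 ratio turned from -0.27 at 0 hr (from -0.45 to -0.15 under the other scalings) to 0.37 at 6 hr. The size at 0 hr was that of miR-145 with the opposite sign, as both follow rank in quantile normalization. miR-494, from the imprinted Dlk1-Dio3 region, read 158 and 139 at 0 hr and 260 and 168 at 6 hr, and was below 0 both times (-0.29 and -0.69). It was the only miRNA among the 15 lowest at 0 hr that also passed 1.5-fold at 6 hr. The others were miR-17 (-0.30), miR-20b (-0.29), miR-130a (-0.28), miR-125a-3p (-0.26), miR-148a (-0.23), miR-3072* (-0.19) and miR-27b (-0.18).

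**Figure D3:**
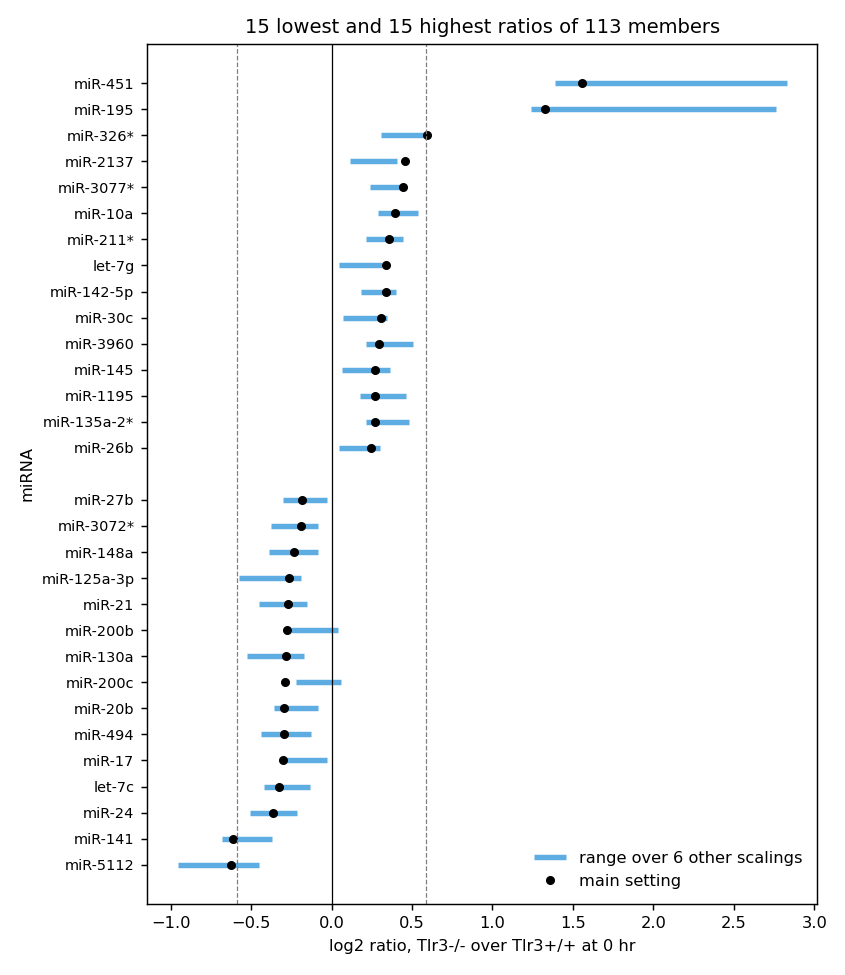
The 15 highest and 15 lowest log2 ratios of Tlr3-/- over Tlr3+/+ at 0 hr among 113 members, with black points for the main setting and blue bars for the range over 6 other scalings. Dashed lines mark 1.5-fold. The bars of miR-451 and miR-195 lie wholly beyond 1.5-fold, and those of miR-200b and miR-200c cross 0.

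Groups of related miRNAs had medians near 0. Over all 656 detected probes the median was 0, with 48% above 0 and 48.6% below. Of the 113 members 42 were above 0 and 55 below. The lists below are described by their counts and medians at 0 hr, with the range of the median over the other 6 scalings. The lists share members, and none of their medians passed 1.5-fold apart from the red cell list, of which miR-451 was the only member.

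Epithelial miRNAs showed no direction that held under every scaling. Of 12 markers of intestinal epithelium 1 was above 0, 8 below and 3 at exactly 0, with a median of -0.14 (from -0.24 to 0.04). Only 4 of the 12 kept their sign, below 0, under every scaling. Their summed raw intensity was 17284 in Tlr3+/+ and 18357 in Tlr3-/-. These sums are not scaled, and the spike controls were also brighter on the Tlr3-/- array, by 0.29 and 0.23 (log2). With spike scaling the median of the 12 was -0.24. The 3 at 0 were the enterocyte miRNAs miR-192 (2224 in Tlr3+/+ and 2385 in Tlr3-/-), miR-194 and miR-215, whose median ran from -0.15 to 0.15 under the other scalings. miR-203 of differentiated epithelium read 191 and 177 (log2 -0.17), miR-375 of endocrine and goblet cells 83.4 and 77.4 (-0.16), and miR-31 read 246 and 285 (0.12). At 6 hr all 12 epithelial miRNAs were above 0, with a median of 0.14. So were 57 of the 73 members numbered below 600 without a star, with a median of 0.12.

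Most members of the clusters tied to cell proliferation were below 0, as were 40 of the 73 members numbered below 600 without a star. The share below 0 was 48.7% over all members and 48.6% over all detected probes. In miR-17~92 and its paralogous clusters 9 of 14 probes were members, of which 8 were below 0 and 1 above, with a median of -0.16 (from -0.32 to -0.05), and 6 were below 0 under every scaling. The median was -0.32 with the authors' values and -0.29 with spike scaling, where the median of all members was -0.15 and -0.13. Of the 13 probes of these clusters detected on both arrays, 10 were below 0 and 3 above, with a median of -0.12. The 6 members with the seed of miR-17 ran from -0.30 to -0.04. The 4 members encoded within 1 cluster on chromosome 14 had -0.30 for miR-17, -0.16 for miR-19a, -0.12 for miR-20a and -0.09 for miR-19b. Raw values barely differed for miR-20a, at 264 on both arrays, so its sign rests on the scaling. At 6 hr the median of the 9 members was -0.01. Members of 1 seed here differ by few bases, 1 between miR-17 and miR-106a, and may share probe signal.

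Other families were mixed or small. In the let-7 family, which represses growth genes and Lin28, 8 of 9 probes were members, 3 above 0, 4 below and 1 at 0, with a median of -0.03 (from -0.11 to 0.17). let-7c and let-7g, at its ends, differ at 3 of 22 bases and by 0.66 in log2 ratio. All 8 were above 0 at 6 hr, with a median of 0.21, beside 57 of the 73 members numbered below 600 without a star. Of the 5 miR-23/27/24 members none was above 0 and 4 were below, with a median of -0.12 (from -0.15 to 0.08). The 5 miR-30 members, with 3 above 0 and 2 below, had a median of 0.06 (from -0.10 to 0.13).

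The miR-29 and miR-26 families were above 0 as a whole. miR-29a, a repressor of collagen genes, read 521 in Tlr3+/+ and 661 in Tlr3-/-, with a log2 ratio of 0.23, miR-29b read 332 and 406 (0.17) and miR-29c 144 and 166 (0.04). Their median was 0.17 (from 0.04 to 0.32), and miR-29a and miR-29b stayed above 0 under every scaling. miR-26a, which targets Ezh2, read 457 and 595 (0.16) and miR-26b 233 and 285 (0.25), both above 0 under every scaling. At 6 hr miR-26a had the highest ratio of all 113 members, 0.56. The miR-10, miR-99 and miR-125 families had 3 of 7 probes among the members, with a median of 0.07 (from -0.01 to 0.18).

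**Figure D4:**
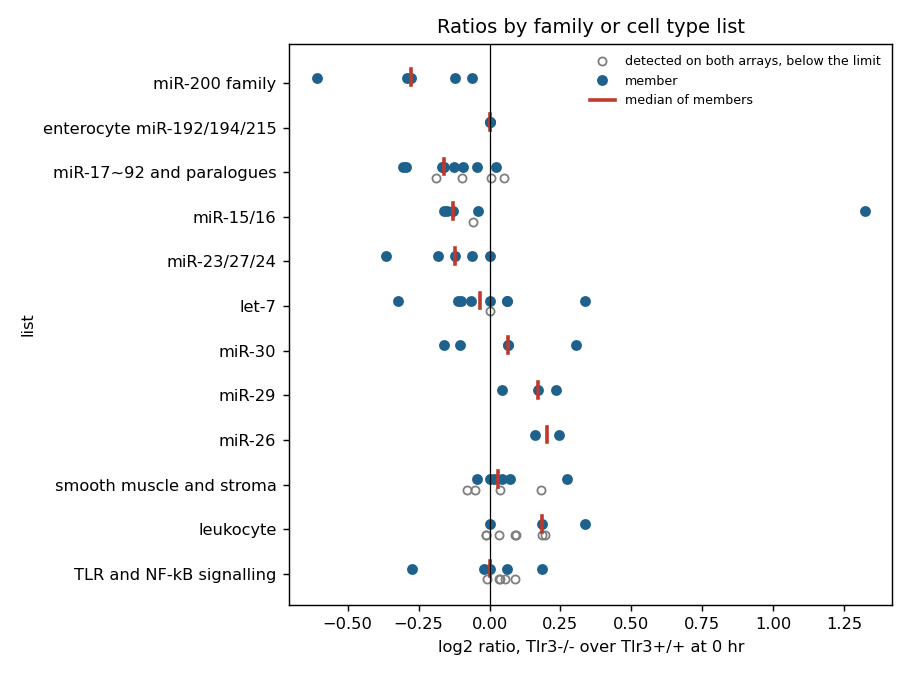
Log2 ratios of Tlr3-/- over Tlr3+/+ at 0 hr (x axis) for 12 families or cell type lists, 1 point a probe, filled for members and open for probes detected on both arrays but below the intensity limit. Red ticks mark the median of the members. Medians lie between -0.28 and 0.20, and the point furthest right is miR-195 at 1.32 in the miR-15/16 list.

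Markers of other cells in the intestinal wall had median ratios between 0 and 0.19. Of 10 leukocyte markers detected on both arrays, 7 were above 0 and 2 below, with a median of 0.09, and 6 stayed above 0 under every scaling. Their summed raw intensity was 625 in Tlr3+/+ and 734 in Tlr3-/-, a log2 ratio of 0.23. The spike controls had 0.29 and 0.23 on the same arrays. The raw sums include background, which is a larger part of these dim probes than of the bright spike controls. These ratios are therefore not like measures. None of the 10 was below the threshold at 0 hr. Their part in the other ratios was not tested. The 3 members among them were miR-142-5p, miR-146a and miR-223, with a median of 0.19 (from 0.06, with spike scaling, to 0.25). Below the intensity limit, miR-142-3p of blood cells read 53.9 and 68.8 and miR-150 of lymphocytes 53.5 and 66.6, both with a log2 ratio of 0.19. At 6 hr their log2 ratios were 0.20 and 0.25, while that of miR-142-5p was -0.07. In the list of smooth muscle and stroma 6 of 10 probes were members, 4 above 0 and 1 below, with a median of 0.03 (from -0.06 to 0.15) and a summed raw intensity over all 10 of 3520 in Tlr3+/+ and 4131 in Tlr3-/-, and the endothelial miR-126-3p read 329 and 327.

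miRNAs linked to the receptor's own pathway showed no common direction. Of 10 probes on the list of Toll-like receptor and NF-kB signalling 5 were members, 2 above 0, 2 below and 1 at 0, with a median of 0.00 (from -0.07 to 0.18). All 10 were detected on both arrays, 6 above 0 and 3 below, with a median of 0.04. Of these, 4 stayed above 0 under every scaling. miR-146a, an NF-kB-induced brake on IRAK1 and TRAF6, read 87.0 in Tlr3+/+ and 105 in Tlr3-/-, with a log2 ratio of 0.19. miR-155, another NF-kB-induced miRNA, was near the threshold on both arrays, at 29.1 and 32.7. Its log2 ratio was 0.09 (from 0.05 to 0.56 under the other scalings). miR-223 of myeloid cells read 99.9 and 104, with a ratio of 0.00. Of 9 p53-responsive probes 5 were members, 3 of them the enterocyte miRNAs at 0, with a median of 0.00 (from -0.14 to 0.15).

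The type of miRNA name separated the members more at 6 hr than at 0 hr. At 0 hr the 14 star strands, the arm of a hairpin that is usually degraded, had 9 above 0 and 3 below, with a median of 0.15 (from 0.03 to 0.24), and 8 stayed above 0 under every scaling. This lean was not seen with dimmer probes included. The 177 star strands detected on both arrays had 91 above 0 and 84 below, with a median of 0.00. The median was 0.01 with a limit of 2 times the threshold. Because the offset pulls dim ratios towards 0, these medians cannot show whether the lean extends to dimmer star strands. The 31 members numbered 600 or above, 5 of which are also star strands, had 10 above 0 and 14 below with a median of 0.00 (from -0.20 to 0.04), and the 73 members with lower numbers and no star had 26 above 0 and 40 below with a median of -0.03 (from -0.14 to 0.08). At 6 hr the 3 medians were -0.36, -0.20 and 0.12, and 12 of the 14 star strands were below 0. Over the 89 members with a sequence, the share of G and C bases correlated with the log2 ratio at r = 0.08 and rho = 0.07 at 0 hr and at r = -0.61 and rho = -0.47 at 6 hr. These are correlations across miRNAs of the same arrays, which share slide, labelling and scaling.

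miRNAs that share a seed or a gene cluster were also set side by side. Among the members with a sequence, 42 fell into 13 groups of identical seed, with a median range of 0.23 between the lowest and the highest log2 ratio in a group, and 4 groups held ratios of both signs. miRNA genes within 10 kb of each other on 1 strand formed 20 clusters, with miR-144 added and the arms of a single hairpin not counted as a cluster, and with a median range of 0.20. The widest of these were miR-144 with miR-451 and miR-497 with miR-195, followed by miR-23a, miR-27a and miR-24 on chromosome 8, with 0.00, -0.06 and -0.37. miR-24 comes from 2 loci, and the array cannot tell their products apart.

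The genotype ratio of the same members at 6 hr was a different set of values. At 6 hr 64 members were above 0, 42 below and 7 at exactly 0, with a median of 0.07, while 55% of all 645 probes detected on both of those arrays were above 0 and 43.1% below. No member was 1.5-fold higher, as was no detected probe, and 3 were 1.5-fold lower (miR-762, miR-92b* and miR-494), against 0.465% of all detected probes. Across the 113 members the ratios at 0 hr and 6 hr correlated at r = -0.21 and rho = -0.12, and r was -0.21 without miR-451 and miR-195. The sign was the same for 44 members and opposite for 48, and 21 had a ratio of exactly 0 at either time. Of the 15 highest at 0 hr, 7 were above 0 and 8 below at 6 hr, and of the 15 lowest, 9 were above 0 and 5 below. The 6 hr arrays differ from the 0 hr arrays in irradiation, time and slide, which cannot be told apart.

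**Figure D5:**
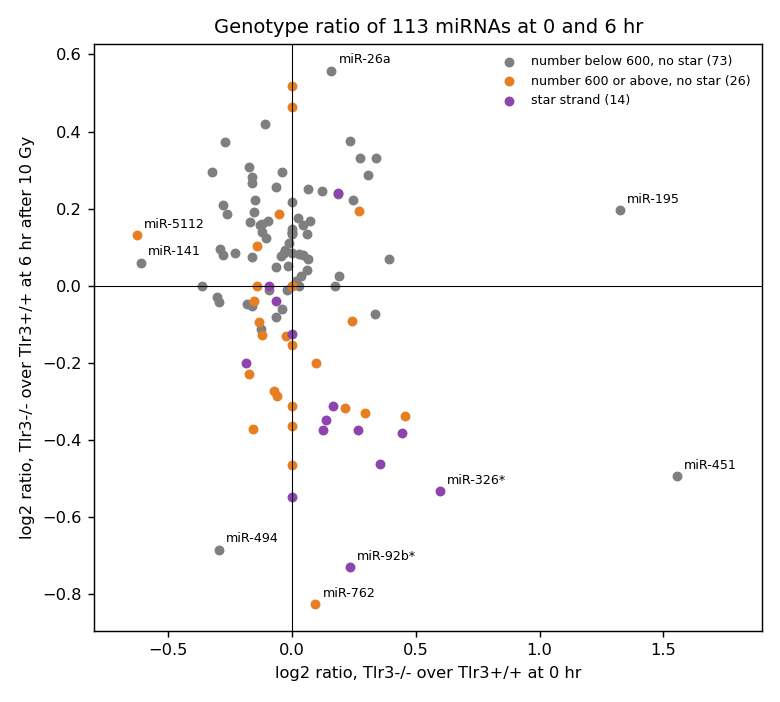
Log2 ratio of Tlr3-/- over Tlr3+/+ for 113 miRNAs without treatment at 0 hr (x axis) and at 6 hr after 10 Gy (y axis), 1 array per group, coloured by type of name. The 2 points far to the right are miR-195 and miR-451, on opposite sides of 0 at 6 hr, and 12 of 14 star strands lie below 0 at 6 hr.

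Near the intensity limit the ratios were small in the main setting, whose offset of 50 pulls the ratios of such dim probes towards 0. The 5 members just inside it were miR-680, miR-5115, miR-425, miR-3084 and miR-375, with log2 ratios of 0.24, -0.12, -0.03, -0.05 and -0.16. The 5 probes just outside were miR-3096b-3p, miR-3072, miR-671-5p, miR-125a-5p and miR-181a, with -0.12, -0.13, 0.10, 0.10 and -0.01. At the bright end, miR-3968 (8182 in Tlr3+/+ and 7256 in Tlr3-/-), miR-690 (3866 and 3521), miR-5100 (5349.5 and 5299.5) and miR-720 (1738 and 2131) had ratios of exactly 0, so in these the rank was the same on both arrays while the raw values were not.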

How the data were processed

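Total RNA from small intestine was labelled with Hy5 and hybridized to 1-colour miRNA arrays, per the labels' protocols. The authors deposited, for each of 4 arrays, the raw intensity of 3136 spots (1135 miRNA probes, 1818 blank spots) and, per the file headers, background-subtracted and globally normalized intensity. No source used here names the scanner or its software. Each array's blank mean left out 5% of spots at each end. By this rule the authors' filled cells were matched with 0 differences.

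Raw intensity was background-corrected with the blank spots as negatives (nec, offset 50, limma 3.58.1, R 4.3.3), quantile-normalized over the miRNA probes of the 4 arrays and taken to log2, with no log2 values of the authors used. The 39 viral probes entered the normalization only, and 12 mouse probes name several miRNAs. Tables were computed in Python 3.11.15 with pandas 2.3.3. The script was tested on simulated data. Since each group has 1 array, miRNAs past 1.5-fold and 2-fold were counted, with no test.

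Named were the 15 highest and the 15 lowest log2 ratios, every member past 1.5-fold, members of lists and of their seed groups or clusters, and the 5 probes on each side of the limit. Others were chosen after their values were seen. The members and lists were chosen with earlier results of these data known. Array names were paired with RefSeq names by hand, and 24 members had no match. Alternatives were 6 other scalings, 4 other background settings (offset 16, none, blank mean subtraction, normexp by saddle fit) and 4 other intensity limits.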

Additional observations from a re-analysis of the deposited data

Results flagged for a closer look

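For 6 miRNAs the log2 ratio of Tlr3-/- over Tlr3+/+ was past 1.5-fold at 0 hr or 6 hr and had opposite signs at the 2 times, on 1 array each. With 1 array per group the difference between the times was not tested. The values are those of the main setting, and the ratios at 6 hr are given in that setting only. At 0 hr miR-5112 and miR-141 passed 1.5-fold under some of the other scalings only, and miR-326* under none of them. For miR-451 the ratio at 6 hr minus that at 0 hr was -2.05, from 1.56 to -0.49. For miR-326* it was -1.13, from 0.60 to -0.53. For miR-92b* it was -0.96, from 0.23 to -0.73, and for miR-762 -0.92, from 0.09 to -0.83. The other 2 went upward, miR-5112 by 0.76, from -0.63 to 0.13, and miR-141 by 0.67, from -0.61 to 0.06. The values of miR-762 at 0 hr and miR-141 at 6 hr were near 0, so their signs may rest on the scaling.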

How the results depend on the processing

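Counts past 1.5-fold and 2-fold and the median ratio of the members were computed under 14 alternatives. The 1.5-fold higher count of 3 fell to 1, and the 2-fold higher count of 2 to 0, when members had to pass the intensity limit on both arrays, since this leaves out miR-451 and miR-195. The 1.5-fold lower count of 2 was 0 under scaling to the 75th percentile, cyclic loess, median scaling and quantile normalization of each pair of arrays. The median of 0 was -0.15 with the authors' values and -0.13 with spike scaling, and the median of all detected probes was -0.17 and -0.03. The causes were not tested. Of these values 62 moved little and 8 are those above. Some single ratios and list medians changed sign. Under median scaling miR-200b went from -0.28 to 0.04, miR-200c from -0.29 to 0.06 and the epithelial median from -0.14 to 0.04. The limit for a move of a log2 ratio was 0.096, the SD of a ratio between 2 repeated spike spots. Of the values for single miRNAs, 106 (35.3%) moved by more than this, as did 45 (17.9%) of the list medians, while 206 list medians did not. No paired analysis was possible because each group has 1 array. The dim Tlr3+/+ values of miR-451 and miR-195, near background, limit how exactly their folds are known.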
